A study of Homo sapiens with 12 samples.

Results

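The anaphase-promoting complex or cyclosome (APC/C) and the spindle assembly checkpoint that restrains it were represented by 33 of the 18053 genes in 3 pooled knockout screens with the TKOv3 guide library. The 33 genes were taken from a named list by their symbols, and all were found, each with 4 guides, which gave 132 of 71090 guides. The list was chosen with earlier results of these data known. They comprised 14 core APC/C subunits, 2 activators, 2 ubiquitin-conjugating (E2) enzymes, the inhibitor FBXO5 (EMI1), 6 checkpoint signalling proteins, 2 proteins that silence the checkpoint, 4 proteins of the ROD-ZW10-ZWILCH (RZZ) complex and its partner Spindly, and securin with separase. Cells that carry Cas9 and a guide against a gene they need are lost from the pool, so the count of a guide follows the growth of the cells that carry it.

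The APC/C is a ubiquitin ligase that marks cyclin B and securin for destruction, which lets sister chromatids part and cells leave mitosis. CDC20 activates it in mitosis and FZR1 (CDH1) from late mitosis through G1, while EMI1 keeps it inactive in S and G2 phase so that cyclins can build up. Unattached kinetochores turn on the spindle checkpoint, in which MAD2, BUBR1 and BUB3 bind CDC20 and hold the APC/C back.

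HCC1806 is a triple-negative breast cancer line and MIA PaCa-2 a pancreatic cancer line. In HCC1806, an INX-315 screen held 1 start library, 2 DMSO libraries and 2 libraries from cells in 500 nM INX-315, a CDK2 inhibitor named ARC in the sample titles. A separate HCC1806 screen held 1 start library, 1 DMSO library and 1 library with palbociclib, a CDK4/6 inhibitor, and MIA PaCa-2 held 1 library each for the start, DMSO, 500 nM INX-315 and palbociclib. The palbociclib doses of the methods were 500 nM in HCC1806 and 250 nM in MIA PaCa-2, whereas the sample labels read 250 mM. All libraries came from pools of cells infected with the guide library, DMSO was the vehicle, and treatment lasted at most 5 passages by the methods. The labels put the HCC1806 starts at passage 0, the MIA PaCa-2 start at passage 1 and all other libraries at passage 8. The study calls the paired HCC1806 libraries biological replicates, while the labels do not say whether they came from separate infections, so p-values measure the spread between these libraries, whatever its source.

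Totals ran from 24946956 to 58875726 counts a library. A guide at 0 can still hide up to 3 counts, or 0.051 to 0.12 counts per 1000000 (CPM), and since the PCR carried no molecular identifiers all such limits cover counting error only. Replicate 1 of the HCC1806 DMSO libraries in the INX-315 screen, called DMSO 1 here, stood apart from the others. Its log2 CPM over all guides correlated with DMSO 2 at 0.543, while DMSO 2 and the INX-315 libraries correlated at 0.918 and 0.919. Over all guides it held 11906 under 30 counts, against 4368 in DMSO 2 and 4829 and 4853 in the INX-315 libraries. Of the 132 APC/C and checkpoint guides it held 69 under 30, against 51 in DMSO 2 and 60 and 63 with INX-315. HCC1806 values are therefore given with and without DMSO 1. No start library had any of the 132 guides under 30 counts.

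Without drug, most of the 33 genes were needed in HCC1806 and fewer in MIA PaCa-2. A gene was called lost when the median over its guides of the log2 ratio of CPM (plus 0.5) to the start library was −1 or lower. By this rule 28 members were lost in DMSO 1, 27 in DMSO 2 and 27 in the DMSO library of the palbociclib screen, where 44.1%, 13.5% and 14.0% of all genes were lost. In MIA PaCa-2, 17 of 33 were lost against 8.75% of all genes. The median change of the members was −3.20, −2.59 and −2.23 on the log2 scale in the HCC1806 libraries, in that order, and −1.07 in MIA PaCa-2, with medians over all genes of −0.84, −0.09, −0.07 and −0.04. Since the starts of the lines were at different passages, the line and the passage of its start cannot be told apart in this comparison.

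**Figure D1:**
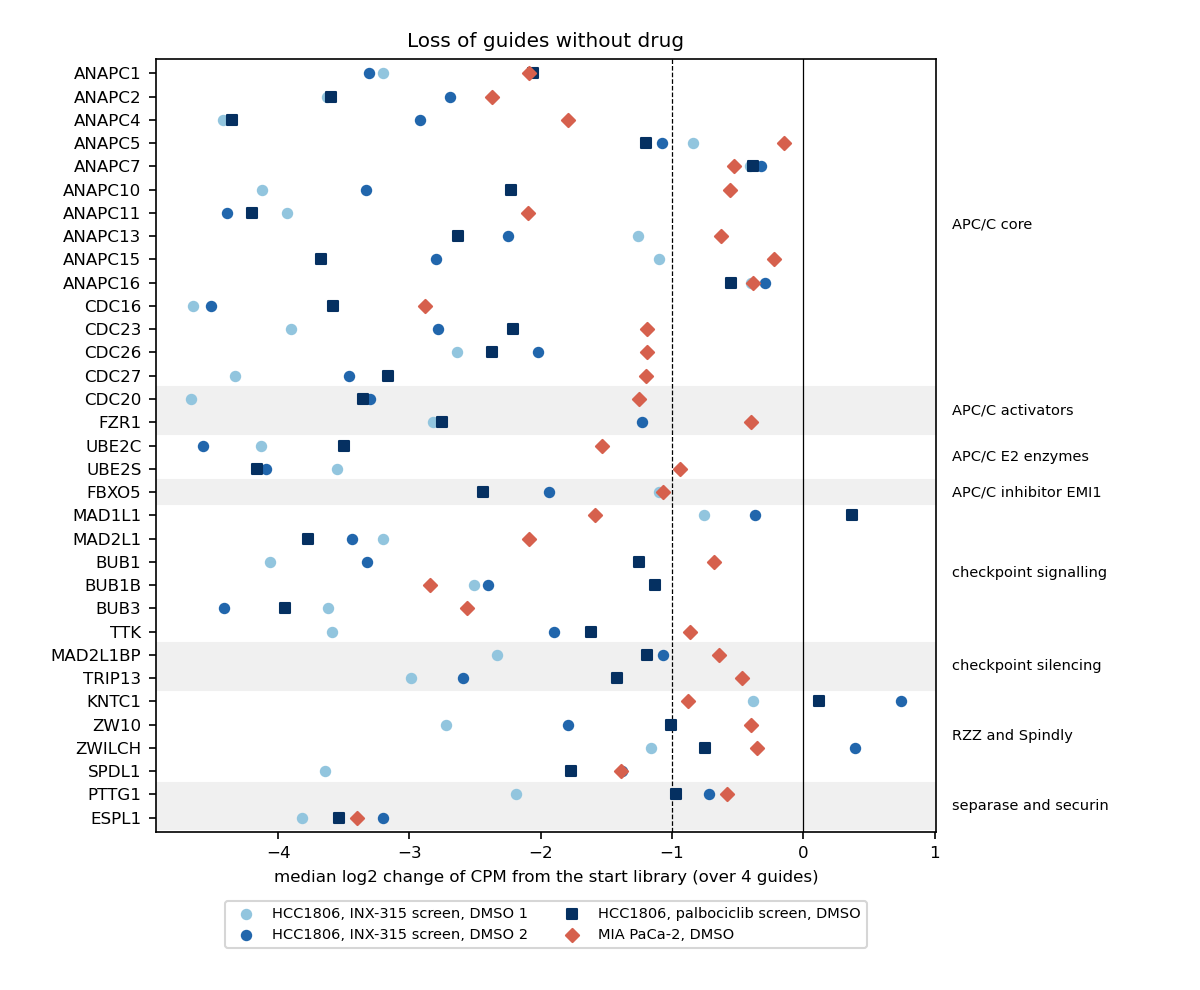
Median log2 change of CPM from the start library over the 4 guides of each of the 33 genes, in the 3 HCC1806 DMSO libraries (circles and squares) and the MIA PaCa-2 DMSO library (diamonds), 1 point a library, grouped by role. The dashed line marks −1, at or under which a gene was called lost. MIA PaCa-2 lay nearer 0 than all 3 HCC1806 libraries for 24 genes, and ANAPC7, ANAPC16 and KNTC1 were lost in none.

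Among the core subunits, the catalytic pair was strongly lost in HCC1806. ANAPC11, the RING subunit, changed by −3.93, −4.39 and −4.20 in DMSO 1, DMSO 2 and the palbociclib screen's DMSO and by −2.10 in MIA PaCa-2. ANAPC2, the cullin, changed by −3.63, −2.69 and −3.60 in HCC1806 and −2.37 in MIA PaCa-2. Of the TPR-repeat subunits, which dock the activators, CDC16 showed the deepest change in MIA PaCa-2, at −2.88, beside −4.65, −4.51 and −3.58 in HCC1806.

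CDC23 and CDC27, also TPR subunits, and the small subunit CDC26 were lost in all 4 libraries, with MIA PaCa-2 values of −1.19, −1.20 and −1.19. So were the scaffold subunits ANAPC1 and ANAPC4, at −2.09 and −1.79 in MIA PaCa-2. On sums over guides ANAPC1 changed less in HCC1806, by −0.79 ± 0.53 SE. Its guide 1 rose in DMSO 2 (0.73) and in the palbociclib screen's DMSO (0.80), where the sum went from 49.2 to 42.9 CPM. By the median, 3 core subunits passed −1 in every HCC1806 library and not in MIA PaCa-2. ANAPC10, which helps bind substrates, changed by −4.12, −3.33 and −2.23 in HCC1806 and −0.56 in MIA PaCa-2. ANAPC15, which promotes turnover of the checkpoint complex on the APC/C, changed by −1.10, −2.80 and −3.67 and by −0.22. ANAPC13 changed by −1.26, −2.25 and −2.63 and by −0.63.

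ANAPC5, a scaffold subunit, lay near the threshold in HCC1806, at −0.84, −1.08 and −1.20, and at −0.15 in MIA PaCa-2. ANAPC7, a TPR subunit found in vertebrates, stayed between −0.53 and −0.32 in the 4 libraries. ANAPC16 stayed between −0.55 and −0.29. They were the only core subunits that passed −1 in none of these libraries.

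The activators and E2 enzymes were lost in every HCC1806 library. CDC20 changed by −4.66, −3.30 and −3.35 in HCC1806 and −1.25 in MIA PaCa-2, and FZR1 by −2.82, −1.23 and −2.75 in HCC1806 but −0.40 in MIA PaCa-2. UBE2C, which places the first ubiquitins on a substrate, changed by −4.13, −4.57 and −3.50 against −1.53. UBE2S, which lengthens the chains, changed by −3.55, −4.09 and −4.16 against −0.94. FBXO5 was lost in all 4 libraries, at −1.10, −1.94 and −2.44 in HCC1806 and −1.07 in MIA PaCa-2. In DMSO 1 and MIA PaCa-2 its guides were split. Guides 1 and 2 changed by −2.26 and −4.84 in DMSO 1 and by −2.58 and −2.11 in MIA PaCa-2. Guides 3 and 4 stayed near the start, at 0.34 and 0.07 in DMSO 1 and 0.40 and −0.03 in MIA PaCa-2.

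Of the 6 checkpoint signalling genes, 3 were lost in all 4 libraries. BUB3, which carries BUB1 and BUBR1 to kinetochores, changed by −3.62, −4.41 and −3.95 in HCC1806 and −2.56 in MIA PaCa-2, and MAD2L1 (MAD2) by −3.20, −3.44 and −3.77 against −2.09. BUB1B (BUBR1) changed by −2.51, −2.40 and −1.13 in HCC1806 and by −2.84 in MIA PaCa-2, the lower of the 2 lines by this median. On sums over guides the order was the other way, with a line difference of 0.31 ± 0.86 SE toward less loss in MIA PaCa-2. MAD1L1 (MAD1), which recruits MAD2 to kinetochores, was lost only in MIA PaCa-2, at −1.59 beside −0.76, −0.37 and 0.37.

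The kinases BUB1 and TTK (MPS1) passed −1 in all 3 HCC1806 libraries and changed by −0.68 and −0.86 in MIA PaCa-2. So did MAD2L1BP (p31comet) and TRIP13, which take apart the inhibitory complex, at −0.64 and −0.47 in MIA PaCa-2. Of the RZZ genes, which bring MAD1 and dynein to kinetochores, KNTC1 (ROD) was not lost in any library (−0.38, 0.74, 0.12 and −0.88). ZW10 was lost in HCC1806 alone and ZWILCH in DMSO 1 alone, at −1.16. Their partner SPDL1 (Spindly), a dynein adaptor, was lost in all 4 libraries.

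ESPL1 (separase), the protease that cleaves cohesin, changed by −3.82, −3.20 and −3.54 in HCC1806 and by −3.40 in MIA PaCa-2, where it had the lowest value of the 33 genes. PTTG1 (securin), its inhibitor, passed −1 in DMSO 1 alone, at −2.19, beside −0.72, −0.97 and −0.58. In all, 16 members were lost in all 4 DMSO libraries, against 6.93% of all genes, and 10 in every HCC1806 library and not in MIA PaCa-2, against 3.14%. The MIA PaCa-2 value was nearer 0 than all 3 HCC1806 values for 24 members, against 34.7% of all genes, and lower than all 3 for ANAPC7, MAD1L1, BUB1B and KNTC1, against 9.78%.

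When gene sums of the 2 start and 3 DMSO libraries of HCC1806 were tested with edgeR's quasi-likelihood test, no gene of 18050 passed an adjusted p of 0.05 in either direction (0% of genes). The lowest adjusted p among the members was 0.112, for ANAPC11 (log2 change −3.75 ± 0.69 SE) and BUB3 (−4.32 ± 0.81 SE). At an unadjusted p under 0.05, edgeR found 20 members lower and 0 higher, against 9.26% and 0.172% of all genes. DESeq2 called 18 members lower and 0 higher, against 8.94% and 0.504% of all genes. The members' median edgeR log2 change was −1.94, and that of all genes 0.03. Without DMSO 1, edgeR called 23 members lower (10.9% of all genes), without DMSO 2 it called 14 (5.97%), and without the palbociclib screen's DMSO it called 1, BUB3 (1.21%).

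The difference of this change between the lines, with MIA PaCa-2 at 1 library an arm and assumed to vary like HCC1806, was not called for any member by edgeR (0 of 33, adjusted p of 1 throughout). At an unadjusted p under 0.05, edgeR also found 0 members lower and 0 higher, against 0.0388% and 0.582% of genes, and DESeq2 called 0 and 0, against 0.0166% and 0.155%. The median difference was 1.14 on the log2 scale, toward less loss in MIA PaCa-2, against −0.02 over all genes. Without DMSO 1, UBE2S alone was called (3.85 ± 0.67 SE, edgeR adjusted p = 0.018), against 0.283% of all genes.

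With INX-315 in HCC1806, guides against KNTC1 and FBXO5 were the most depleted of the 33 genes relative to DMSO. Drug and DMSO libraries were compared with DrugZ, which divides each guide's log2 ratio by the spread of guides with like control counts and sums them over a gene into a score, normZ. A gene under −2 was called depleted and a gene over 2 enriched. Of 33 members, 6 were depleted, against 2.78% of all genes, and ANAPC16 was enriched, against 1.46%. The members' median normZ was −0.78, beside 0.04 for all genes, and 25 lay under 0.

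**Figure D2:**
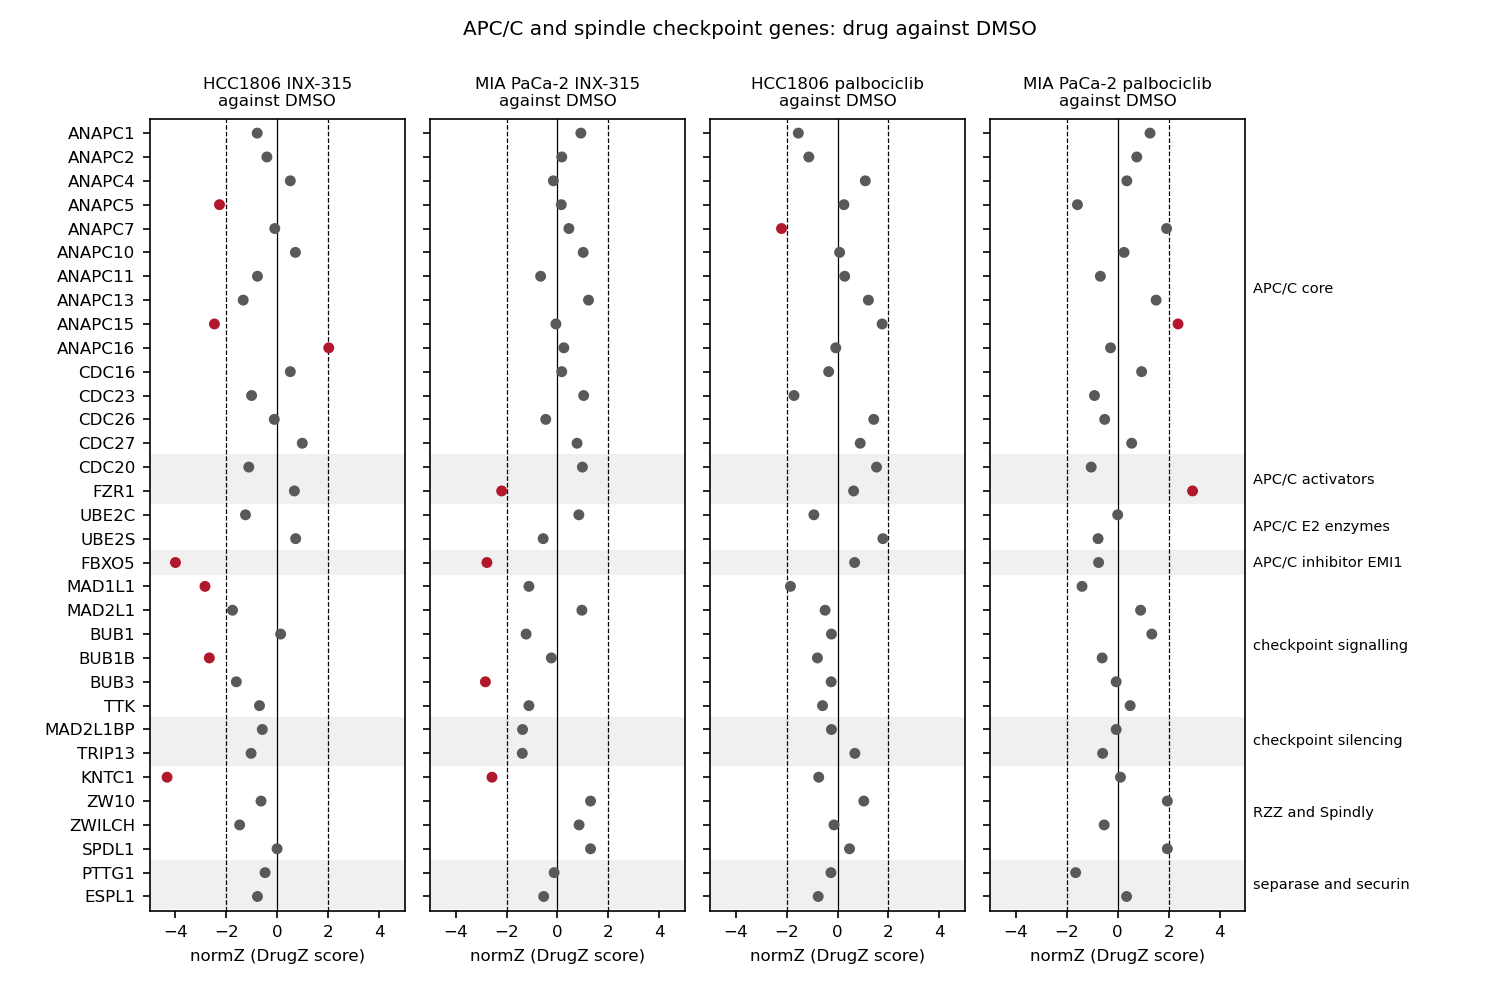
DrugZ normZ of the 33 genes in the 4 comparisons of a drug with DMSO, 1 point a gene, grouped by role. Dashed lines mark −2 and 2, and genes beyond them are red. FBXO5 and KNTC1 lay under −2 with INX-315 in both lines and within the dashed lines with palbociclib.

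FBXO5 had 19.7 and 9.77 CPM, summed over its guides, in DMSO 1 and DMSO 2, and 1.5 and 1.8 CPM in the INX-315 libraries, from 39.0 CPM at the start. Both INX-315 libraries lay under both DMSO libraries, by 13.2 times in pair 1 and 5.42 times in pair 2. By guide, ordered by position on chromosome 6 from 153293507 to 153304032 in the coordinates of the guide names (genome build not given in the sources used here), DMSO 1 held 12, 4, 137 and 429 counts. DMSO 2 held 0, 80, 60 and 140 counts, INX-315 replicate 1 held 0, 7, 24 and 8, and replicate 2 held 0, 9, 28 and 8. Guide 4 had the most counts in both DMSO libraries and 8 in both treated libraries, whereas guide 2 was lower with INX-315 in pair 2 only and guide 1 was at 0 in DMSO 2.

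The normZ of FBXO5 was −4.00, with a mean log2 ratio over guides of −1.50 ± 1.36 (SD, 4 guides). It ranked 34 from the lowest of 18053 genes, and DrugZ gave it an adjusted p of 0.0169, which takes guides rather than libraries as replicates and was under 0.05 for 0.249% of all genes, KNTC1 and FBXO5 among them. With libraries as replicates, edgeR gave a log2 fold change of −3.31 ± 0.69 SE (adjusted p = 0.745). DESeq2 called FBXO5 and no other member (−3.32 ± 0.73 SE, adjusted p = 0.00474), against 0.161% of all genes. Its normZ was −4.09 without DMSO 1 and −2.67 without DMSO 2.

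KNTC1 guides were not lost without drug, and here the DMSO libraries differed. Their sum was 42.7 CPM in DMSO 1 and 110.0 in DMSO 2, and 26.3 and 30.7 in the INX-315 libraries, from 58.1 at the start. Both treated libraries lay under both controls, by 1.62 times in pair 1 and 3.59 times in pair 2, and under the start. The normZ was −4.33, the mean log2 ratio −1.28 ± 1.08 (SD, 4 guides) and the rank from the lowest 26 (DrugZ adjusted p = 0.00523, guides as replicates).

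The KNTC1 guides lie on chromosome 12 between 123054345 and 123062255 in the same coordinates. Guide 3 held 494 and 1614 counts with DMSO and 103 and 208 with INX-315, and guide 1 held 422 and 393 against 154 and 62. Guide 2 was the exception, with 174 counts in DMSO 1, 766 in DMSO 2 and 351 and 401 with INX-315. For KNTC1 edgeR gave a log2 fold change of −1.50 ± 0.46 SE (adjusted p = 0.745). The normZ was −6.48 without DMSO 1, and −1.52, no longer past −2, without DMSO 2.

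**Figure D3:**
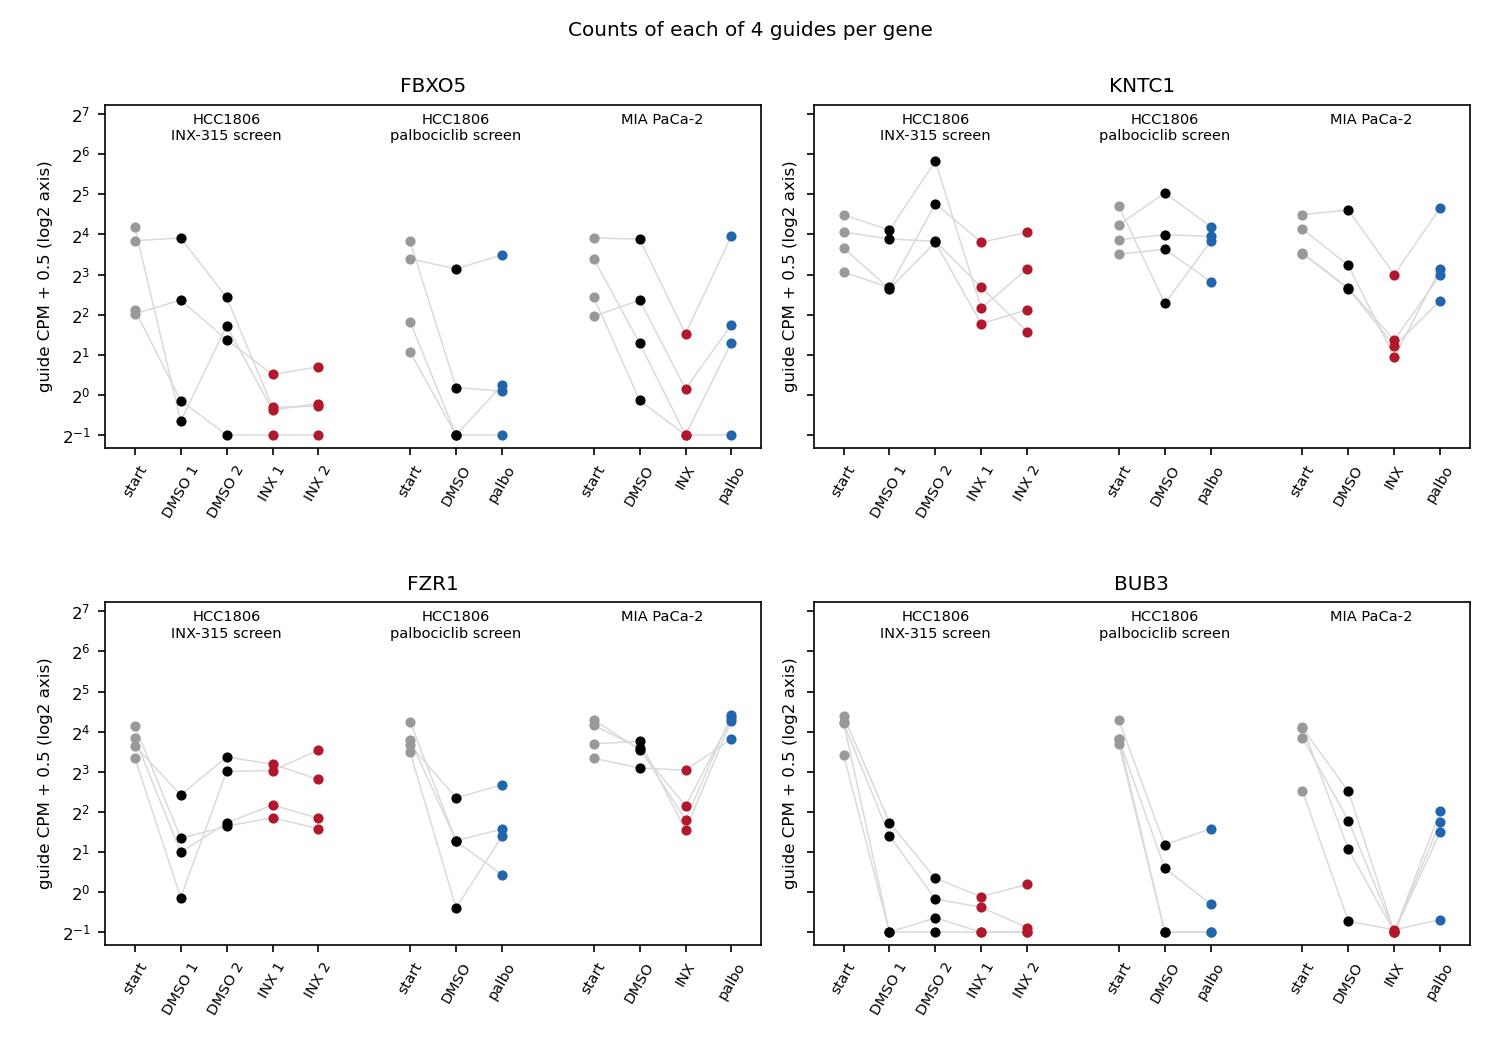
CPM plus 0.5 (log2 axis) of each of the 4 guides against FBXO5, KNTC1, FZR1 and BUB3 in the 12 libraries of the 3 screens, with a line for each guide within a screen. Summed over guides, FBXO5 and KNTC1 lay lower in every INX-315 library than in the DMSO libraries of that screen, MIA PaCa-2 held next to no BUB3 guides under INX-315, and FZR1 guides went apart between the drugs in MIA PaCa-2.

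Of the other depleted members, MAD1L1 had 23.1 and 22.6 CPM with DMSO and 12.9 and 13.3 with INX-315 (normZ −2.84). BUB1B had 14.2 and 19.6 CPM with DMSO and 7.85 and 8.50 with INX-315 (normZ −2.67). For both genes 3 of 4 guides were lower in the mean of the pairs. Without DMSO 2 they lay just inside the threshold, at −1.91 and −1.88. Lower sums in both INX-315 libraries than in both DMSO libraries were also seen for members not called, such as CDC20, TRIP13 and PTTG1. The share of all genes with this order was not counted.

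The depletion of ANAPC15 rested on DMSO 1. It had 82.6 CPM in DMSO 1, 14.8 in DMSO 2, and 8.23 and 12.7 with INX-315, and a single guide supplied 1954 counts in DMSO 1 against 142 in DMSO 2. Its normZ was −2.47, and −0.54 without DMSO 1. ANAPC5, with 45.2 and 16.2 CPM against 12.9 and 8.94, had −2.27, with −1.34 without DMSO 1, −1.99 without DMSO 2 and −1.70 without INX-315 replicate 2.

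ANAPC16 was the only member past 2, at 2.02. It had 40.3 and 39.6 CPM with DMSO and 67.9 and 68.7 with INX-315, so the treated libraries were 1.69 and 1.74 times higher, and all 4 guides were higher in the mean of the pairs. Without DMSO 2 its normZ was 0.87.

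By role, 2 of 14 core subunits were depleted and 1 enriched (median normZ −0.27), against 2.78% and 1.46% of all genes. Of 6 checkpoint signalling genes 2 were depleted (median −1.69). Each of these calls fell inside the thresholds with DMSO 1 or DMSO 2 left out. Of the RZZ and Spindly genes, KNTC1 alone was depleted, with ZWILCH at −1.48, ZW10 at −0.64 and SPDL1 at −0.01. The activators CDC20 (−1.12) and FZR1 (0.67), the E2 enzymes UBE2C (−1.25) and UBE2S (0.72), TRIP13 (−1.03), MAD2L1BP (−0.59), ESPL1 (−0.78) and PTTG1 (−0.48) lay within the thresholds. So did MAD2L1 (−1.76) and BUB3 (−1.61), which had few counts left in DMSO 2, at 5.51 and 1.29 CPM.

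edgeR called no member with libraries as replicates (0 of 33 and 0% of 18018 genes, adjusted p from 0.745 to 0.998). Unadjusted, edgeR found FBXO5, KNTC1 and BUB1B lower and ANAPC16 higher, against 1.95% and 0.583% of genes. Without DMSO 1, where the remaining control is assumed to vary like the treated libraries, edgeR called 8 members lower and 2 higher (8.49% and 6.87% of genes), and without DMSO 2 it called 12 and 12 (36.5% and 37.2%). FBXO5, MAD1L1, BUB1B and KNTC1 were lower and ANAPC16 higher in both of these fits, which share the INX-315 libraries, against 4.06% and 3.54% of all genes. TTK and ZWILCH changed direction between them, against 4.01%.

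INX-315 in MIA PaCa-2 also depleted FBXO5 and KNTC1, and in addition BUB3 and FZR1. These 4 were the depleted members, against 2.85% of all genes, and none was enriched, against 1.63%. The members' median normZ was −0.06, beside 0.04 for all genes. MIA PaCa-2 had 1 library an arm, so its own libraries gave no test and intervals cover counting error only.

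FBXO5 had 21.2 CPM with DMSO and 2.99 with INX-315, a ratio of 0.141 (exact 95% interval 0.118 to 0.167). Its guides held 24, 114, 273 and 839 counts with DMSO and 0, 0, 30 and 117 with INX-315. All 4 were lower, with a mean log2 ratio of −1.93 ± 0.71 (SD, 4 guides) and a normZ of −2.77.

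KNTC1 had 44.3 CPM with DMSO and 12.8 with INX-315, a ratio of 0.290 (exact 95% interval 0.265 to 0.316). Its guides held 1406, 339, 522 and 342 counts with DMSO and 369, 90, 70 and 102 with INX-315. All 4 were lower by a similar amount, with a mean log2 ratio of −1.65 ± 0.44 (SD) and a normZ of −2.57.

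BUB3 guides nearly vanished. They held 94, 173, 6 and 306 counts with DMSO and 0, 0, 1 and 0 with INX-315, a ratio of summed CPM of 0.00207 (exact 95% interval 5.2e-05 to 0.0116). The normZ was −2.83, and −1.83, no longer past −2, with a pseudocount of 20. In HCC1806 BUB3 had 4.95 and 1.29 CPM with DMSO and 0.693 and 0.681 with INX-315, so its counts were already few without the drug. ESPL1 had 1.97 CPM with DMSO in MIA PaCa-2 and 0.0407 with INX-315, and its normZ was −0.54. Guide 4 held 108 of its 116 counts with DMSO and 2 of 2 with INX-315.

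FZR1 was depleted in MIA PaCa-2 and not in HCC1806. In MIA PaCa-2 it had 43.8 CPM with DMSO and 17.0 with INX-315, a ratio of 0.389 (exact 95% interval 0.359 to 0.421), and a normZ of −2.19. Guides 1 to 3 went from 679, 659 and 769 to 147, 193 and 119 counts, and guide 4 from 473 to 379. In HCC1806 it had 8.78 and 22.8 CPM with DMSO and 23.4 and 23.2 with INX-315, where only DMSO 1 lay apart.

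**Figure D4:**
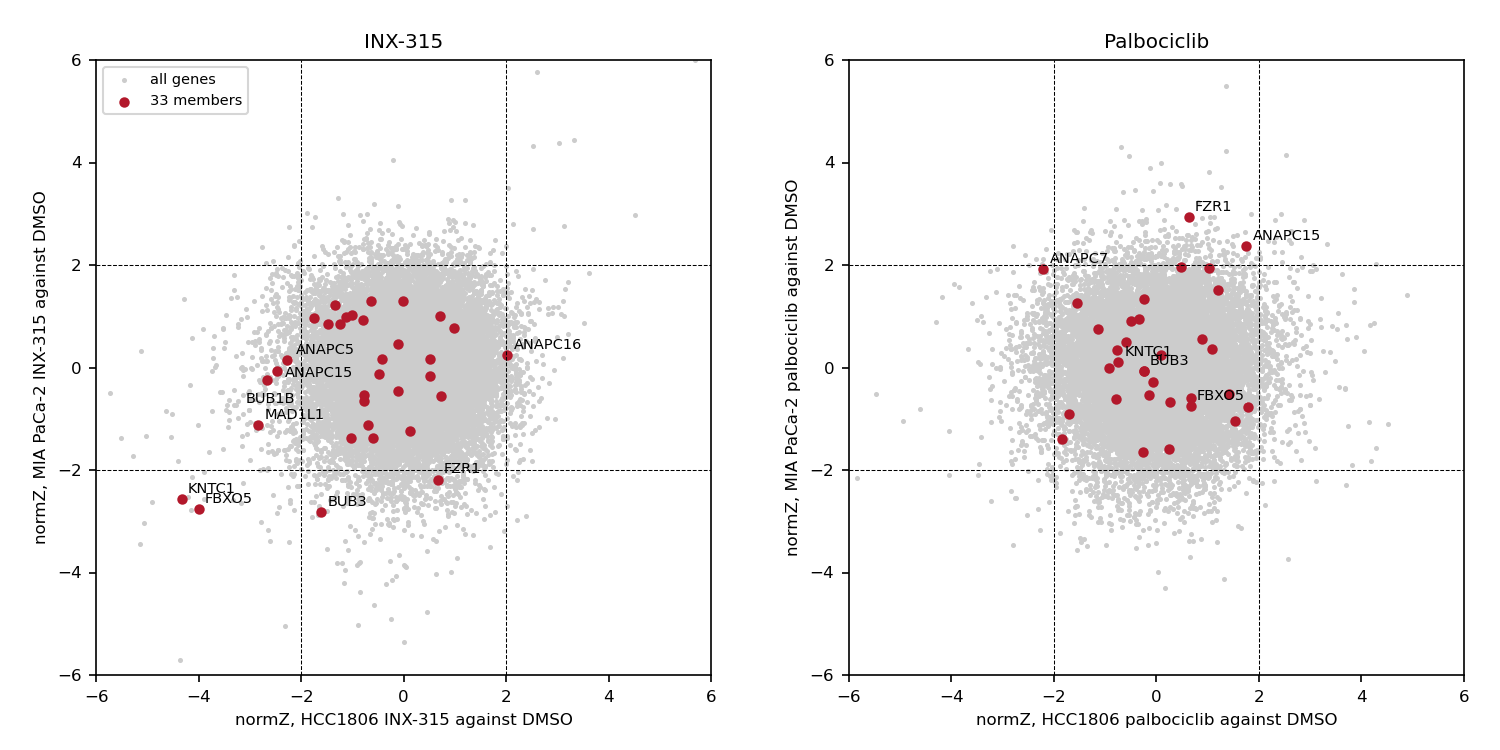
DrugZ normZ in HCC1806 (horizontal) against MIA PaCa-2 (vertical) for INX-315 (left) and palbociclib (right), with the 33 members in red over all genes in grey and dashed lines at −2 and 2. FBXO5 and KNTC1 lay under −2 in both lines with INX-315, and no member lay past the same threshold in both lines with palbociclib. Axes end at 6 in each direction, beyond which 13 genes of the left and 3 of the right panel lie, none of them a member.

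FBXO5 and KNTC1 were thus 2 of the 6 members depleted in HCC1806 and 2 of the 4 in MIA PaCa-2, where 0.199% of all genes were depleted in both lines. The change with INX-315 differed between the lines for no member by edgeR (0 of 33, adjusted p from 0.948 to 0.998). Unadjusted, BUB3 alone was lower in MIA PaCa-2 (−6.29 ± 2.33 SE, edgeR adjusted p = 0.948), against 1.12% of all genes, and 0 members were higher, against 1.28%. DESeq2 called 0 members in either direction, against 0% and 0.00554% of genes. The difference was −1.81 ± 0.88 SE for FZR1 (edgeR adjusted p = 0.948), −0.25 ± 0.78 SE for KNTC1 (0.969) and 0.53 ± 1.16 SE for FBXO5 (0.956). Without DMSO 1, the difference was −7.76 for BUB3 and −1.36 for FZR1, and without DMSO 2 it was −5.6 and −2.51. Each of these fits leaves 1 HCC1806 DMSO library, so the spread between controls is not measured in them.

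Palbociclib gave few calls among the 33 genes. In HCC1806, ANAPC7 alone was depleted (normZ −2.20), against 2.55% of all genes, and none was enriched, against 1.99%. ANAPC7 had 44.8 CPM with DMSO and 25.4 with palbociclib, and its guides went from 651, 113, 385 and 404 to 270, 103, 232 and 293 counts. All 4 guides were lower, though guide 2 by little.

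In MIA PaCa-2, FZR1 and ANAPC15 were enriched with palbociclib, against 1.78% of all genes, and none was depleted, against 2.65%. FZR1 had 43.8 CPM with DMSO and 72.7 with palbociclib, a ratio of 1.66 (exact 95% interval 1.57 to 1.75), above the 58.5 CPM of the start. Its guides went from 679, 659, 769 and 473 to 860, 818, 787 and 566 counts, each higher in CPM, with a mean log2 ratio of 0.71 ± 0.13 (SD, 4 guides). The normZ of 2.94 ranked 28 from the highest. ANAPC15 had 59.9 and 88.5 CPM, and a normZ of 2.37 with 3 of 4 guides higher.

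Of the genes depleted with INX-315, FZR1 was thus enriched with palbociclib in the same line, MIA PaCa-2. ANAPC15, enriched there too, had been depleted with INX-315 in HCC1806 alone, a call that rested on DMSO 1. With INX-315 in MIA PaCa-2 its normZ was −0.06. The other genes depleted with INX-315 passed neither threshold with palbociclib in either line. FBXO5 had 8.97 CPM with DMSO and 12.0 with palbociclib in HCC1806 (normZ 0.67), and 21.2 and 19.9 in MIA PaCa-2 (−0.75). The HCC1806 values of KNTC1 were 64.0 and 53.1 CPM (−0.74), and its MIA PaCa-2 values 44.3 and 45.2 (0.11). BUB3 lay at −0.25 and −0.06. MAD1L1 was lower with palbociclib too, without passing −2. It went from 51.4 to 29.6 CPM in HCC1806 (−1.85) and from 19.8 to 11.4 in MIA PaCa-2 (−1.40). BUB1B went from 27.5 to 25.7 CPM in HCC1806 (−0.79) and from 28.3 to 18.8 in MIA PaCa-2 (−0.61). ANAPC5 went from 17.6 to 18.6 CPM in HCC1806 (0.25) and from 35.7 to 26.6 in MIA PaCa-2 (−1.58). The members' median normZ was −0.14 in HCC1806 and 0.11 in MIA PaCa-2, beside 0.01 and 0.03 for all genes.

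Set directly against palbociclib in MIA PaCa-2, the INX-315 library was lower for the same 4 genes that were depleted against DMSO, and the comparisons share that INX-315 library. FZR1 was the lowest of them, with 17.0 CPM against 72.7, a ratio of 0.234 (exact 95% interval 0.217 to 0.253), a normZ of −4.15 and rank 12 from the lowest of all genes. BUB3 had −2.83, KNTC1 −2.73 and FBXO5 −2.33, and with a pseudocount of 20 BUB3 (−1.88) and FBXO5 (−1.94) no longer passed −2. In this comparison 2.9% of all genes were depleted, and no member was enriched, against 1.46%. BUB1 fell just short, at −1.98.

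Genes that work with these members were read from 4 lists, which were also chosen with earlier results of these data known. Of 14 APC/C substrates, 8 were depleted with INX-315 in HCC1806 (median normZ −2.61), against 2.78% of all genes. In MIA PaCa-2 3 were depleted (−0.77), against 2.85%. With palbociclib 0 were depleted in either line, against 2.55% and 2.65%, and 1 was enriched in MIA PaCa-2, against 1.78%. Cyclin B1 (CCNB1), whose destruction ends mitosis, had −10.6 and −3.70 with INX-315 and −0.06 and 0.27 with palbociclib. The phosphatase CDC25A, which activates CDKs, had −5.14 and −3.44. CCNB2 had −6.16 and −1.04, and the spindle factor TPX2 −3.27 and −0.73.

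Of the 14 kinetochore genes of the KMN network and SKA complex, 0 were depleted with INX-315 in either line, against 2.78% and 2.85% of all genes. With INX-315 NSL1 alone was enriched, in HCC1806 (2.68), against 1.46%, as it was there with palbociclib (2.82), against 1.99%. Of the chromosomal passenger complex, CDCA8 (Borealin) alone was called, at −2.18 with INX-315 in MIA PaCa-2, against 2.85% of all genes. Of 12 cohesin genes, 0 were depleted with either drug, against 2.55% to 2.85% of all genes. PDS5B, a cohesin regulator, was enriched in MIA PaCa-2 with both drugs (2.83 and 2.53), against 1.63% and 1.78% of all genes. Those comparisons share the DMSO library. With palbociclib in MIA PaCa-2, the cohesin subunit STAG2 (3.52), the outer kinetochore protein NDC80 (3.11) and the kinetochore motor CENPE (2.35) were enriched too.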

How the data were processed

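The authors amplified guides from genomic DNA, sequenced them and counted them with MAGeCK (5.9 in the submitters' processing notes), and deposited raw counts per guide. Their normalized tables, the same counts rescaled, were not used. All 12 library columns were matched to samples, and 0 were left unused.

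DrugZ was rewritten in Python 3.11.15 with pandas 2.3.3, numpy 2.4.6 and scipy 1.17.1: libraries scaled to 10000000 counts, pseudocount 5, windows of 1000 guides in steps of 25, INX-315 paired with DMSO by replicate number in HCC1806, normZ thresholds of −2 and 2, and 142 non-targeting guides left out. Gene sums were tested with edgeR 4.0.16 (TMM, filterByExpr, limma 3.58.1, R 4.3.3) and, as an alternative, DESeq2 1.42.0, adjusted over all genes. Changes from the start used guides with at least 30 start counts. Figures were drawn with matplotlib 3.10.9. DrugZ and edgeR were tested on simulated data.

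The members and lists were chosen with earlier results of these data known. Any member could be named, and of each neighbouring list up to 4 genes past −2 or 2 in a comparison with DMSO. The alternatives were pseudocounts, a minimum of control counts, scaling on olfactory receptor guides, the median ratio as score, a threshold of 3, the replicate block and each library left out.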

Additional observations from a re-analysis of the deposited data

Results flagged for a closer look

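ANAPC7 went opposite ways with palbociclib in the 2 lines. Its normZ was −2.20 for HCC1806 cells, where 2.55% of all genes were depleted, and −1.71 with the median ratio as score. For MIA PaCa-2 cells the normZ was 1.92, which did not pass 2. Its 4 guides were all lower in HCC1806 (mean log2 ratio −0.64) and all higher in MIA PaCa-2 (0.51). Each line had 1 library an arm, and the difference was not tested.

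FZR1 had a normZ with INX-315 of 0.67 for HCC1806 cells and −2.19 for MIA PaCa-2 cells. The mean log2 ratio was 1.41 and 0.01 in pairs 1 and 2 of HCC1806 and −1.36 in MIA PaCa-2, so in HCC1806 the positive value came from the pair with DMSO 1 alone. The edgeR test of the difference gave −1.81 ± 0.88 SE (adjusted p = 0.948).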

How the results depend on the processing

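With INX-315 in HCC1806, the count of depleted members (6) went to 2 at a threshold of 3 and ranged from 2 to 8 with a replicate or library left out, lowest without DMSO 2. The count enriched (1) was 0 with a pseudocount of 1, at least 30 control counts, the median ratio, a threshold of 3 or no replicate block, and ranged from 0 to 2 with a replicate or library left out. ANAPC15, at −2.47, ranged from −3.23 (without replicate 2) to 0.00 (without replicate 1). At a threshold of 3, the depleted members in MIA PaCa-2 with INX-315 (4) went to 0, those in HCC1806 with palbociclib (1) to 0, the enriched ones in MIA PaCa-2 with palbociclib (2) to 0 and the depleted ones of INX-315 against palbociclib (4) to 1. With the median ratio, 1 member was enriched with INX-315 in MIA PaCa-2, 5 were enriched with palbociclib in HCC1806, and with palbociclib in MIA PaCa-2 1 was depleted and 4 enriched. With palbociclib in HCC1806, a pseudocount of 1 gave 2 depleted and 1 enriched, and at least 30 control counts gave 4 depleted. A pseudocount of 20 gave 2 depleted for INX-315 against palbociclib, since BUB3 and FBXO5 went to −1.88 and −1.94, and BUB3 with INX-315 in MIA PaCa-2 went to −1.83. The shares of all genes called at these settings are not given here, so these counts cannot be set against them. The cause was not tested.

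For edgeR, DESeq2 called 1 member lower with INX-315 in HCC1806 and 18 lower in DMSO against the start. With each library left out in turn, INX-315 in HCC1806 gave 0 to 12 lower and 0 to 12 higher, the line difference 0 to 12 lower and 0 to 7 higher, DMSO against the start 0 to 23 lower, and its line difference 0 to 1 higher. The largest counts came without DMSO 1 or DMSO 2. Deviations of same-numbered HCC1806 libraries correlated at −0.007, so the data show no pairing. With the replicate block, edgeR called 0 members lower or higher with INX-315 in HCC1806 and 0 for the line difference, as without it. DrugZ called 6 depleted without the block, so the block moved only the count enriched. Of the other values of single genes and counts, 117 of single genes and 117 of counts kept their direction and side of the threshold, or stayed within 1.5 times, and 39 of single genes lost their call with the same direction.

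In the HCC1806 DMSO libraries, 30 (DMSO 1), 18 (DMSO 2) and 31 (palbociclib screen) of 132 guides were at 0, against 4 in MIA PaCa-2, and a further loss of such guides could not be measured.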
